A study of Mus musculus with 8 samples.

Results

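A set of 10 genes, commonly used to describe how tumor macrophages are activated, was followed in C26 tumors: Arg1, Nos2, Mrc1, Cd163, Retnla and Chil3, which are read as markers of alternative or classical activation, and Trem2, Spp1, Gpnmb and Apoe, which mark lipid-associated macrophages. They were taken from the table by gene symbol, and all 10 were found among the 27179 genes of the deposited table. The tumors were subcutaneous C26 colon carcinomas in male CD2F1 mice, of which 4 came from cxC26 scr cells (called control tumors below) and 4 came from the subclone cxC26 IL-6 KO s1 (knockout tumors). Both lines are the cachectic C26 line (cxC26), which causes wasting of the host. The cxC26 scr cells carried a scrambled guide RNA, whereas the cxC26 IL-6 KO s1 cells are a single subclone in which Il6 had been disrupted with CRISPR/Cas9, so that the knockout and the clone cannot be told apart. Only the inoculated cells carried the disruption, and the host cells in the tumor, macrophages included, kept an intact Il6. The labels place the tumors at cachexia, when the host had lost over 15% of its weight, and give neither an age nor a day of collection. The methods of the study describe adult mice. In its other CD2F1 experiments that followed these lines to cachexia, knockout cells were given in a larger inoculum and the hosts became cachectic later. If these tumors were grown in that way, the inoculum and the time of growth cannot be told apart from the genotype. Immunodeficient NOD-SCID mice were given both lines in equal number.

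Macrophages in tumors arise largely from blood monocytes and change their genes with the signals around them. Interferon and microbial products drive the classical program, in which inducible nitric oxide synthase (Nos2) turns arginine into nitric oxide. Interleukin-4, interleukin-13 and glucocorticoids drive alternative programs, with arginase (Arg1), the mannose receptor (Mrc1), the hemoglobin scavenger receptor CD163 and the secreted proteins of Retnla and Chil3. Macrophages that take up much lipid or cell debris carry TREM2, a lipid-sensing receptor that signals through the adaptor TYROBP, together with osteopontin (Spp1), GPNMB and apolipoprotein E (Apoe). None of these genes is private to macrophages, because carcinoma cells, fibroblasts, osteoclasts and other cells can also make Arg1, Spp1, Gpnmb or Apoe.

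The levels are log2 CPM, read counts scaled to the size of the library and put on a log2 scale, and each tumor had between 14158989 and 17048062 reads on genes. Il6 had 4.33 to 4.83 log2 CPM in the control tumors and 1.99 to 2.46 in the knockout tumors, without overlap. Genes that reached 1 CPM in at least 4 tumors were tested, and a gene was called higher or lower where its adjusted p from limma over all 13262 tested genes was under 0.05. By this rule 19.1% of all tested genes were called higher and 20.7% were called lower in the knockout tumors. General macrophage markers were present in every tumor. Their summed level was 554.5 to 658.2 CPM in the control tumors and 924.8 to 1834 CPM in the knockout tumors, and 11 of the 12 markers were higher and 1, Mertk, was lower in the knockout. Markers of other cells moved as well. All 6 tested osteoclast markers were higher (summed 42.4 to 50.5 CPM against 317.1 to 784.8), as were all 4 tested mast cell markers (7.66 to 11.2 against 19.3 to 102.2) and all 4 tested T cell markers (1.27 to 2.84 against 9.02 to 15.9). Of these, Dcstamp, Oscar, Cd3g, Cd2 and Cd8a were below 1 CPM in every control tumor, as was the eosinophil marker Ccr3. They passed the filter only through the knockout tumors, so whether they were tested depended on the direction of the difference. None of the 5 endothelial, 4 adipocyte and 4 skeletal muscle markers tested was called. Of the monocyte markers 4 of 6 were higher and 1 lower, and of 4 tested neutrophil markers 1 was higher and 1 lower. Of 6 fibroblast markers 2 were higher and 2 lower, and all 5 pan-leukocyte and both tested epithelial markers were higher. The single tested marker was higher for eosinophils (Ccr3) and lower for dendritic cells (Zbtb46). The dendritic cell markers below the filter, Flt3, Xcr1, Clec9a, Ccr7 and Cd209a, went the other way, with higher means in the knockout. Eosinophil markers below the filter had at most 11 reads in any tumor, and their differences lay on both sides of 0. The part of these cells in the results below was not tested. In bulk tumors, fewer cells of a type and less RNA per cell cannot be told apart. Knockout tumor 1 stood furthest from its group, with 5.03% of tested genes more than 1 log2 unit from the median of its other tumors, against 1.44% to 2.88% for the remaining 7 tumors, and calls among the 10 genes that rest on it are given with and without it.

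Of the 10 genes 9 were tested, and Trem2 and Mrc1 were called higher and Cd163 was called lower. The 250 bases before an annotated transcript start of these 3 genes are shown, because core promoter elements lie in that stretch. The last 15 bases of the Cd163 window lie within the annotated span of the gene, which has an earlier first position. They are RefSeq sequence of GRCm38.p6, on the plus strand, from chr17:48346151-48346400 for Trem2, chr2:14229164-14229413 for Mrc1 and chr6:124304401-124304650 for Cd163. The capitals mark GAGGAA or its reverse complement TTCCTC, a core that PU.1, the Ets factor of macrophages, can bind.
Trem2: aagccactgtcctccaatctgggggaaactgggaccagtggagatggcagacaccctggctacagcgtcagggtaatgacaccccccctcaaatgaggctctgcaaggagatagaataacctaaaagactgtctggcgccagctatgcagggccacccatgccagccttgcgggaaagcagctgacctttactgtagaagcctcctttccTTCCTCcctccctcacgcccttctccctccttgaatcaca
Mrc1: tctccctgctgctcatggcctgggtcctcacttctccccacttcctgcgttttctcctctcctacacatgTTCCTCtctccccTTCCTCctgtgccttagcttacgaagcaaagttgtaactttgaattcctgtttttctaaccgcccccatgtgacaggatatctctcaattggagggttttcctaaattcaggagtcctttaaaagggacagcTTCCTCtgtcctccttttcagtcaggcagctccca
Cd163: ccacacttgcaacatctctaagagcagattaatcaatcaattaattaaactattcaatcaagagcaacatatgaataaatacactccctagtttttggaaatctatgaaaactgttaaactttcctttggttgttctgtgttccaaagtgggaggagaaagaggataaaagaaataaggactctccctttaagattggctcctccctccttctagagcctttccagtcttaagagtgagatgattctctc
Trem2 held 1 such match, at bases -40 to -35 from the start, Mrc1 held 3, nearest at -35 to -30, and Cd163 held 0. Of the genes that were not called, Spp1 and Retnla held 1 each and Apoe held 2 over its 3 windows, and Gpnmb and Chil3 held 0. All 3 Apoe windows lie wholly within the annotated span of the gene, as does 1 of the Spp1 windows, which held 0. At least 1 match on either strand is found in 23.3% of the 32841 RefSeq windows of this length. The spaced palindromes TTCNNNNGAA, the form STAT6 binds, and TTCNNNGAA, a form STAT3 binds, were searched on both strands too and occur in 5.85% and 7.02% of windows. None of the 3 windows shown held either, while Retnla held 1 TTCNNNNGAA and Chil3 held 1 TTCNNNGAA. Promoter windows were matched for 8 of the 10 genes. These matches describe letters only.

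Trem2 was the only gene of the 10 whose values did not overlap between the groups. Its level was 3.50, 3.79, 3.74 and 3.46 log2 CPM in the control tumors and 4.89, 4.83, 5.10 and 4.93 in the knockout tumors. Every knockout tumor stood above every control tumor, as was the case for 17.8% of all tested genes, and the tumors of a group lay close together. The mean rose from 3.62 ± 0.17 to 4.94 ± 0.11 log2 CPM (SD, n = 4 each), a 2.48-fold difference (1.31 log2 units, 95% interval 1.05 to 1.57, limma, adjusted p = 1.44e-05). The counts behind it were 169 to 224 reads in the control and 394 to 539 in the knockout. The gene lies at chr17:48346401-48352276 (GRCm38). The increase was called in all 17 settings of the processing that do not rescale to marker genes, between 1.24 and 1.37 log2 units.

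**Figure D1:**
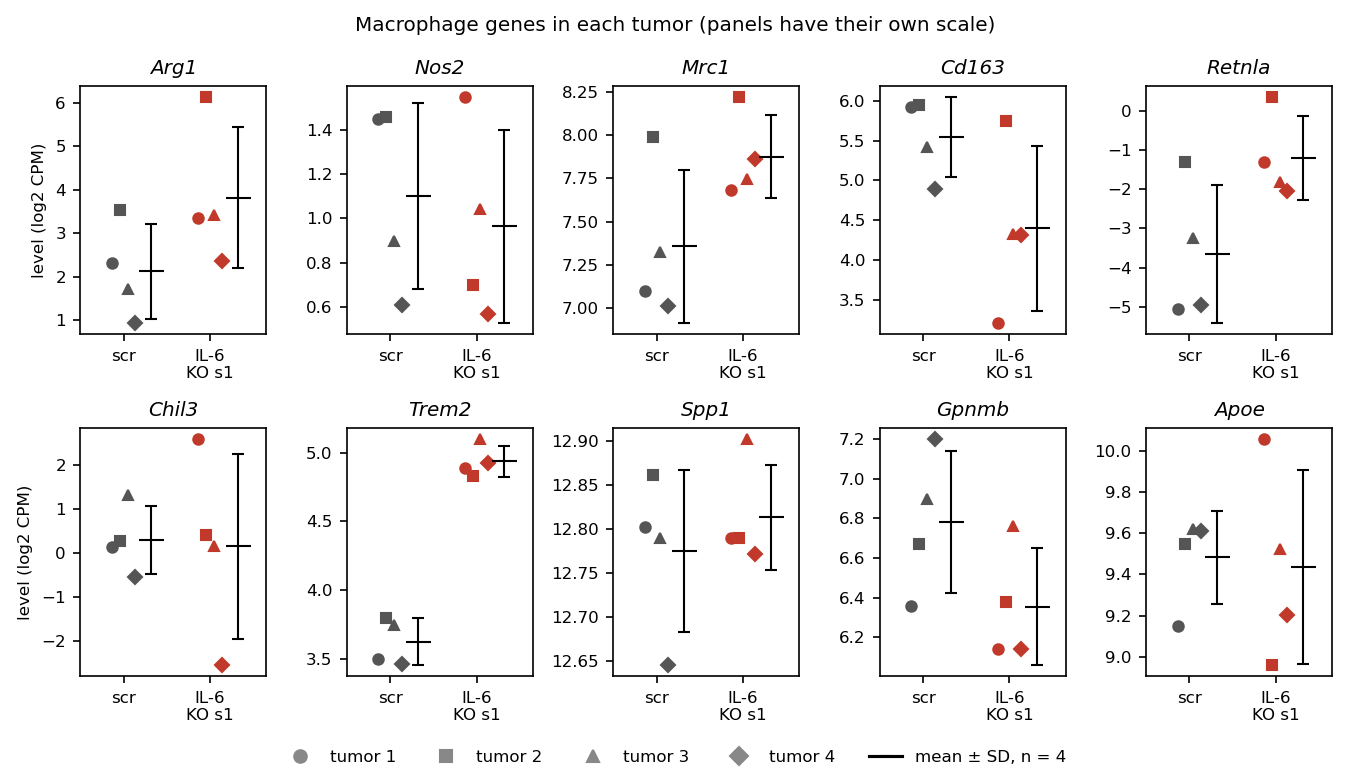
Level of each of the 10 genes in log2 CPM (vertical axis, its own scale in each panel) in 4 control (cxC26 scr, grey) and 4 knockout (cxC26 IL-6 KO s1, red) tumors; symbols give the tumor number and bars the mean ± SD. Only Trem2 has every knockout tumor (4.83 to 5.10) above every control tumor (3.46 to 3.79), and the groups overlap in the other 9 panels.

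Spp1 and Apoe were abundant and differed little. Spp1, which encodes the secreted matrix protein osteopontin (chr5:104435111-104441053), had the highest mean level of all 27179 genes in the table. It stood at 12.80, 12.86, 12.79 and 12.65 log2 CPM in the control tumors and at 12.79, 12.79, 12.90 and 12.77 in the knockout tumors. The groups overlapped, and the difference of 0.04 log2 units had a 95% interval of -0.28 to 0.36 (limma, adjusted p = 0.856). Apoe, the lipid carrier that cells secrete when they export cholesterol (chr7:19696244-19701310), ranked 152 by mean level. Its values were 9.15, 9.55, 9.62 and 9.61 in the control and 10.06, 8.96, 9.52 and 9.20 in the knockout, so that both the highest and the lowest tumor were knockout tumors. The difference was -0.05 (95% interval -0.49 to 0.40, limma, adjusted p = 0.876).

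Gpnmb encodes a transmembrane glycoprotein of phagocytes and melanocytes that is induced by lysosomal load (chr6:49036518-49058182). It had 6.36, 6.67, 6.90 and 7.20 log2 CPM in the control tumors and 6.14, 6.38, 6.76 and 6.14 in the knockout tumors. The knockout tumors lay toward the lower end of a shared range. The mean was 6.78 ± 0.36 in the control and 6.35 ± 0.29 in the knockout (SD, n = 4 each), a difference of -0.43 (95% interval -0.82 to -0.04) that did not pass the threshold over all genes (limma, adjusted p = 0.0784). Without control tumor 1 it was called, at -0.57 (limma, adjusted p = 0.0221), and likewise without knockout tumor 3, at -0.56 (0.0280).

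Among the genes of alternative activation, Cd163 and Mrc1 were called in opposite directions. Cd163, the scavenger receptor for hemoglobin bound to haptoglobin (chr6:124304636-124330529), had 5.93, 5.95, 5.42 and 4.90 log2 CPM in the control tumors and 3.21, 5.75, 4.32 and 4.31 in the knockout tumors. Knockout tumor 2 lay within the control range, and the other 3 knockout tumors lay below every control tumor. The mean fell from 5.55 ± 0.50 to 4.40 ± 1.04 (SD, n = 4 each), to 45.1% of the control (-1.15 log2 units, 95% interval -2.07 to -0.23, limma, adjusted p = 0.0479). The exact permutation test over the 70 splits of the tumors gave p = 0.0857. The call was lost without knockout tumor 1, where the difference was -0.75 (limma, adjusted p = 0.0939), and it was also lost without knockout tumors 3 or 4 and without control tumors 1, 2 or 3 (adjusted p = 0.0815 to 0.120). It held without control tumor 4, and without knockout tumor 2 the difference was -1.60 (limma, adjusted p = 0.00241).

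Mrc1, the mannose receptor (chr2:14229414-14332023), had 7.10, 7.99, 7.32 and 7.01 log2 CPM in the control tumors and 7.68, 8.22, 7.74 and 7.86 in the knockout tumors. Every knockout tumor lay above 3 of the control tumors, and control tumor 2 lay above 3 of the knockout tumors. The mean rose from 7.36 ± 0.44 to 7.88 ± 0.24 (SD, n = 4 each), 1.44-fold (0.52 log2 units, 95% interval 0.10 to 0.94), at the edge of the threshold (limma, adjusted p = 0.0499). The exact permutation test gave p = 0.114. With 1 tumor left out the call held only without control tumor 2, at 0.73 (limma, adjusted p = 0.00261), or without knockout tumor 1, at 0.59 (0.0380). Cd163 overlaps a lncRNA gene, Gm52877, and Mrc1 holds the microRNA gene Mir511. The strand setting of the counting is not given in the sources used here, so reads of overlapping genes cannot be told apart.

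Arg1, the arginase that turns arginine into ornithine and urea (chr10:24915207-24927470, overlapped by the lncRNA gene Gm40616), varied widely between tumors of a group. It had 2.32, 3.53, 1.71 and 0.94 log2 CPM in the control tumors, from 29 to 186 reads, and 3.35, 6.12, 3.43 and 2.36 in the knockout tumors, from 74 to 965 reads. Knockout tumor 2 stood far above all others, and the remaining 3 knockout tumors lay within the upper part of the control range. The means were 2.12 ± 1.09 and 3.82 ± 1.61 (SD, n = 4 each), and the difference of 1.69 (95% interval 0.14 to 3.24) did not pass the threshold (limma, adjusted p = 0.0786). It was 0.92 without knockout tumor 2 (adjusted p = 0.181), whereas it was called without control tumor 2, at 2.16 (limma, adjusted p = 0.0402), and without knockout tumor 4, at 2.18 (0.0317).

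Nos2, which competes with arginase for arginine (chr11:78920787-78960226), was low in all tumors. It had 1.45, 1.46, 0.90 and 0.61 log2 CPM in the control tumors and 1.55, 0.70, 1.04 and 0.57 in the knockout tumors, from 21 to 47 reads. The ranges were nearly the same, and the difference was -0.14 (95% interval -0.80 to 0.52, limma, adjusted p = 0.744). Per kilobase of exon, Arg1 lay above Nos2 in every tumor. The gap was 1.86, 3.05, 1.80 and 1.31 log2 RPKM in the control tumors and 2.79, 6.41, 3.37 and 2.78 in the knockout tumors, and control tumor 2 overlapped the knockout range.

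Retnla and Chil3, secreted proteins that interleukin-4 induces in mouse macrophages, were scarce. Retnla (chr16:48842609-48844461) had 0, 6, 1 and 0 reads in the control tumors and 6, 17, 4 and 3 in the knockout tumors, and only 1 of the 8 tumors reached 1 CPM, so it was not in the fit. The groups overlapped, and the exact permutation test gave p = 0.114, where 0.0286 is the smallest that 4 against 4 tumors can give. Chil3 (chr3:106147554-106167564) had 18, 19, 35 and 10 reads in the control and 97, 18, 17 and 2 in the knockout. The knockout held both the highest and the lowest tumor, and the difference of -0.14 log2 units had a 95% interval of -1.98 to 1.70 (limma, adjusted p = 0.909).

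Of the 9 genes that passed the expression filter, 2 were called higher (Trem2 and Mrc1) and 1 was called lower (Cd163) in the knockout tumors, and 6 were not called. Beside the 19.1% and 20.7% of all tested genes, this count was near that of the whole table. None of the 9 lay wholly below the control, whereas 19.3% of all tested genes did. The median difference was -0.05 log2 units over the 9 genes and -0.0029 over all tested genes.

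**Figure D2:**
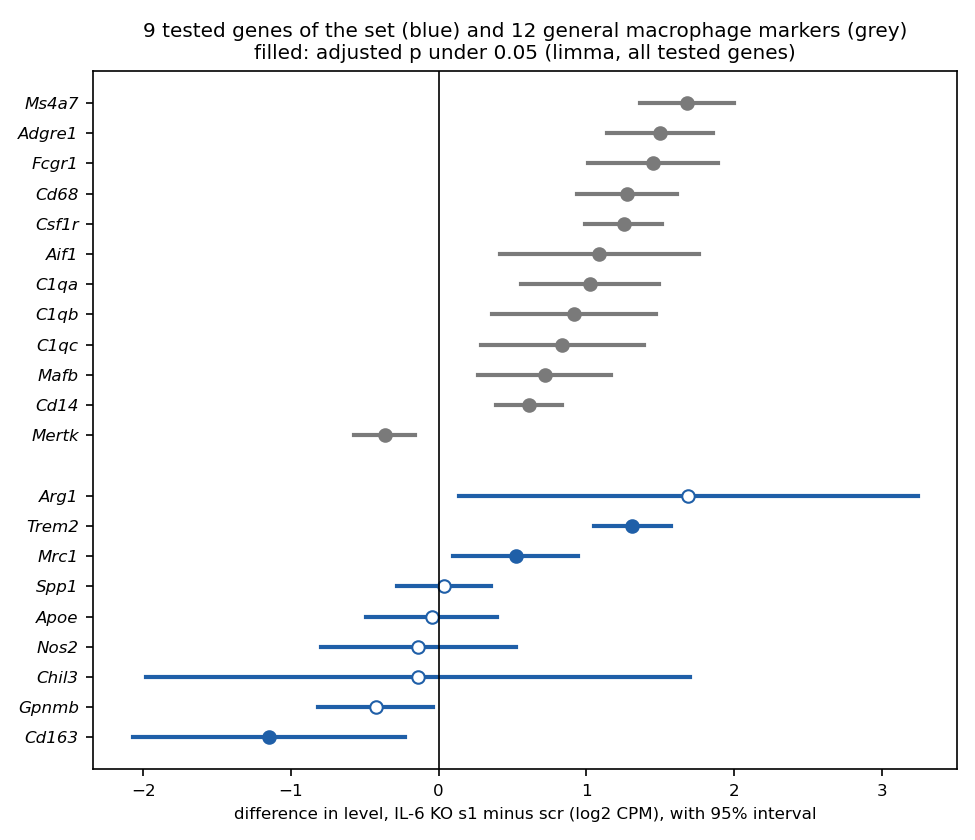
Difference in level between knockout (cxC26 IL-6 KO s1) and control (cxC26 scr) tumors in log2 CPM (horizontal axis, points, with 95% intervals as lines) for the 9 tested genes in blue and 12 general macrophage markers in grey; filled points have a limma adjusted p under 0.05. Of the blue genes Trem2 (1.31) lies among the general markers, of which 11 are higher and Mertk is lower, while Cd163 (-1.15) lies to the left of them all.

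Because 11 of the 12 general macrophage markers were higher, each gene was also read against them. The score of the 12 markers, their mean log2 CPM, was 5.26 ± 0.06 in the control tumors and 6.26 ± 0.37 in the knockout tumors (SD, n = 4 each). Subtracting the score lowers the median difference of all tested genes to -1.0, and 73.7% of them then lie wholly below the control and 1.46% wholly above. A value near -1.0 on this scale is therefore that of an ordinary gene of the table.

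On this relative scale the groups overlapped for Trem2. It stood at -1.68, -1.52, -1.53 and -1.80 log2 units relative to the score in the control and at -1.88, -1.05, -1.09 and -1.26 in the knockout, with knockout tumor 1 below the rest. The difference was 0.31 and the exact permutation test gave p = 0.171. Arg1 differed by 0.69 (p = 0.629), Mrc1 by -0.48 (p = 0.257) and Chil3 by -1.14 (p = 0.343), all by the exact permutation test with overlapping groups. Retnla, which had 0 reads in 2 of the control tumors, is plotted but not compared on this scale. Mrc1, higher in CPM, was thus on the other side of 0 when read against the markers, where the groups overlapped.

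On the same scale 4 of the 9 tested genes lay wholly below the control, beside 73.7% of all tested genes. Their differences were -1.43 for Gpnmb, -1.14 for Nos2, -1.05 for Apoe and -0.96 for Spp1, which are the shift of -1.0 plus the uncalled differences in CPM given above. Cd163 had the largest relative difference, -2.15, of which the shift is again a part. It stood at 0.75, 0.63, 0.14 and -0.36 in the control and at -3.56, -0.13, -1.87 and -1.87 in the knockout. Knockout tumor 2 again overlapped the control, and the exact permutation test gave p = 0.0571.

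**Figure D3:**
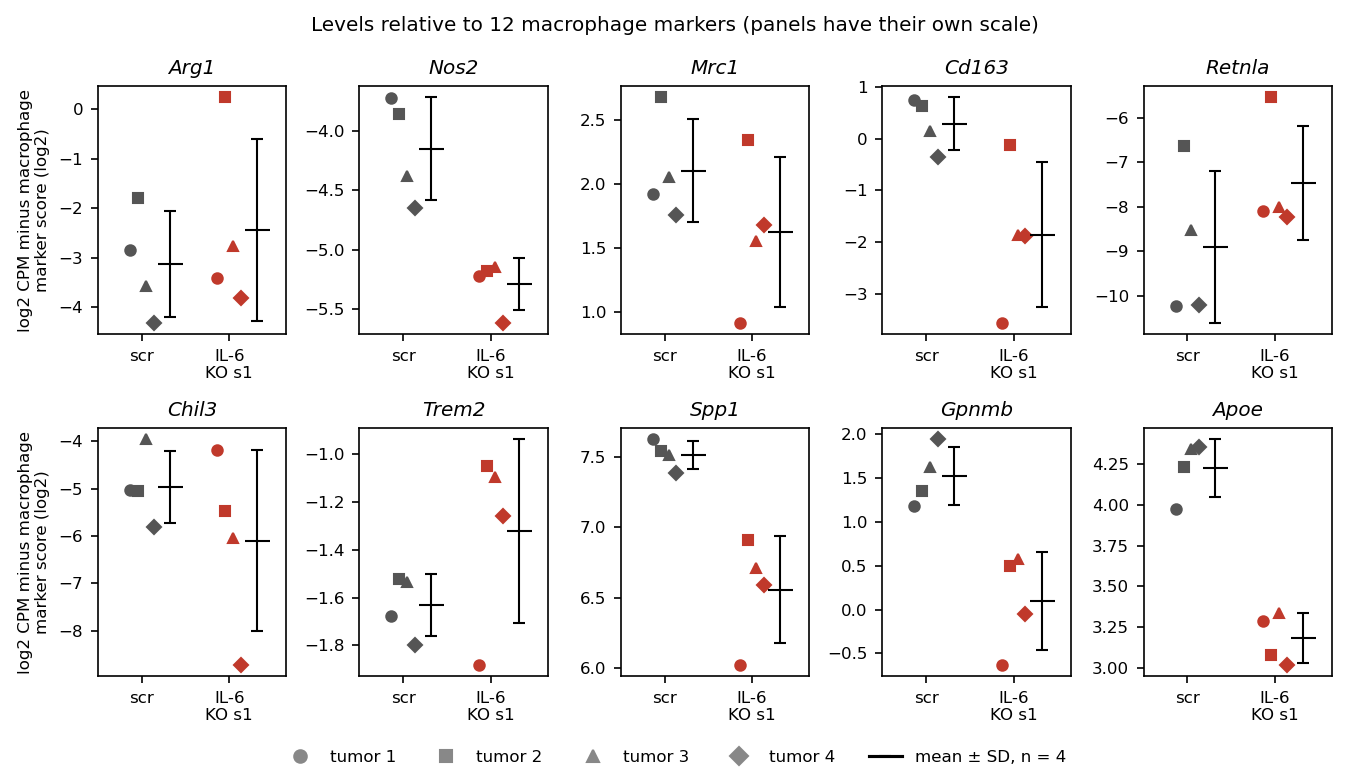
Level of each gene minus the macrophage marker score of the same tumor (vertical axis, log2 units, its own scale in each panel) in control (cxC26 scr, grey) and knockout (cxC26 IL-6 KO s1, red) tumors, with the mean ± SD beside the points. Nos2, Spp1, Gpnmb and Apoe lie wholly below the control, as 73.7% of all tested genes do on this scale, and Trem2 does not (difference 0.31).

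The genes also differed in which tumors of a group carried them. In both groups tumor 2 was the highest for Arg1, Mrc1, Cd163 and Retnla, with 6.12, 8.22 and 5.75 log2 CPM and 17 reads in the knockout. Knockout tumor 1 was the highest of its group for Nos2 (1.55), Chil3 (2.59) and Apoe (10.06), and the lowest for Cd163 (3.21) and Mrc1 (7.68). The same tumor had the highest score of general macrophage markers (6.77, against 5.88 to 6.19 in the other knockout tumors) and of classical activation genes (5.04, against 2.82 to 3.42). Its mast cell score was the lowest of the knockout (2.20, against 4.34 to 4.43). The shared replicate number does not tie tumors of different groups to each other.

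Per kilobase of exon, the 10 genes spanned a wide range of levels, and the order was led by the lipid-associated genes Spp1 and Apoe. Mean levels in log2 RPKM in control and knockout tumors were 12.05 and 12.09 for Spp1 and 8.39 and 8.34 for Apoe. Mrc1 followed at 4.68 and 5.21, then Gpnmb at 4.08 and 3.65. Cd163 stood at 3.10 and 1.95. Trem2, at 1.32 and 2.63, and Arg1, at 0.97 and 2.66, were neighbours within the spread of Arg1 in both groups. Chil3 (-0.41 and -0.55), Nos2 (-1.04 and -1.18) and Retnla (-2.90 and -0.47) were at the end, and their order was within the spread of Chil3 and Retnla. Control tumors 1 and 4 had 0 reads of Retnla, and their values are set by the 0.5 reads that the log2 scale adds. The means of Retnla are therefore not compared between the groups. Cd163 lay above Trem2 in every control tumor and below it in 3 of the 4 knockout tumors. The order between genes rests on their exon union lengths, 4946 bases for Trem2, 5461 for Cd163 and 2228 for Arg1. The annotation used for counting is not given, so the counted lengths may differ, and the order of these genes with them.

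In log2 CPM, the scale of this and the following lists, other genes of the alternative program were either higher or not called. Of 18 listed genes 12 were tested, of which 5 were called higher, 0 lower and 7 were not called (median difference 0.49). Pparg, a lipid-activated nuclear receptor that alternative macrophages need, rose by 1.58 ± 0.35 log2 units (SE, limma, adjusted p = 0.00400), and Klf4, a factor downstream of STAT6, rose by 1.36 ± 0.15 (adjusted p = 5.57e-05). Stab1, Folr2 and Tgm2 were the other 3. The receptor chain Il4ra differed by 0.24 (adjusted p = 0.0961), and Il4 and Il13 themselves had at most 3 reads in every tumor. Of the classical list 15 of 18 were tested, with 8 higher, 1 lower and 6 not called (median 1.50). Among the higher genes, Acod1 and Cxcl11 were below 1 CPM in every control tumor and passed the filter only through the knockout tumors. Cxcl9, an interferon-induced chemokine, rose by 3.42 ± 1.14 (limma, adjusted p = 0.0325) with 3038 reads in knockout tumor 1 and 23 to 67 in the other 3, and by 1.93 without that tumor (adjusted p = 0.00572). Acod1, which makes itaconate, rose by 2.94 (adjusted p = 0.00534), whereas Socs3, a feedback inhibitor that STAT3 induces, fell by 0.86 (adjusted p = 0.00127). Ptgs2, the most abundant gene of the list, differed by -0.27 (adjusted p = 0.347). Read against the macrophage marker score, the median difference was -0.51 for the alternative list and 0.50 for the classical list, beside -1.0 for all tested genes.

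Among signals for these programs, 17 of 22 genes were tested and 7 were called higher, 1 lower and 9 not (median 0.30). Csf1, the growth factor of macrophages, rose by 2.37 ± 0.18 log2 units (SE, limma, adjusted p = 4.59e-06), with 478 to 927 reads in the control and 2909 to 3711 in the knockout. Stat3 fell by 0.52 (adjusted p = 0.00236) and Cebpb, a factor that activates Arg1, differed by -0.11 (adjusted p = 0.484). In arginine metabolism, beside Arg1 and Nos2, 3 of 12 tested genes were higher, 1 was lower and 8 were not called (median -0.09). The arginine transporter Slc7a2 rose by 1.58 (adjusted p = 0.0203), Ass1, which rebuilds arginine from citrulline, by 1.57 (adjusted p = 0.00576) and the antizyme inhibitor Azin1 by 0.61 (adjusted p = 0.000720). The endothelial synthase Nos3 fell by 0.55 (adjusted p = 0.0342), and Odc1, which uses the ornithine that arginase makes, differed by 0.38 (adjusted p = 0.0868).

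Genes around TREM2 were called in both directions. Of 12 genes of its signalling and shedding 7 were called higher, 2 lower and 3 not (median 0.85). Tyrobp, the adaptor through which TREM2 signals, rose by 1.32 ± 0.20 log2 units (SE, limma, adjusted p = 0.000365), near the 1.31 of Trem2, from 316 to 474 reads in the control to 689 to 1487 in the knockout. Plcg2, a phospholipase downstream of it, rose by 1.22 (adjusted p = 0.000321). Vav3 and Pik3r1 fell by 0.84 and 0.79 (adjusted p = 0.00643 and 0.000444). Adam17, a protease that sheds TREM2, differed by -0.03 (adjusted p = 0.864), whereas Adam10, the other shedding protease of the list, rose by 0.51 (adjusted p = 0.0014). TYROBP is shared by many myeloid and natural killer cell receptors.

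Of the lipid-associated program 25 of 26 further genes were tested, and 10 were higher, 2 lower and 13 not called (median 0.24). The higher genes held Lgals3, a galectin of phagocytes, at 1.35 ± 0.16 log2 units (SE, limma, adjusted p = 7.5e-05), and Clec7a, the beta-glucan receptor, at 1.67 ± 0.61 (adjusted p = 0.0469, and 1.04 with 0.0876 without knockout tumor 1), together with the lipase genes Lpl and Lipa and the lipid droplet gene Plin2. Itgax fell by 1.89 (adjusted p = 0.00259) and Pld3 by 0.34 (adjusted p = 0.0318). The abundant cathepsin genes Ctsl and Ctsb differed by -0.33 and 0.15 (adjusted p = 0.125 and 0.357). Of 10 genes of the MiT-TFE factors and the lysosome, a pathway that induces Gpnmb, 3 were higher, 2 lower and 5 not called (median 0.09). Mitf, which activates Gpnmb in melanocytes and osteoclasts, fell by 0.75 (adjusted p = 0.00100) and Gla fell by 0.60 (adjusted p = 0.00245), whereas Tfeb rose by 0.74 (adjusted p = 0.00405) and Atp6v0d2, a proton pump subunit that is also on the osteoclast list, by 4.97 (adjusted p = 2.04e-05). Atp6v0d2 had 4 to 29 reads in the control tumors, of which only tumor 2 reached 1 CPM, and 168 to 365 in the knockout tumors. Lamp1 rose by 0.27 (adjusted p = 0.0324) and Lamp2 differed by 0.03 (adjusted p = 0.869).

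**Figure D4:**
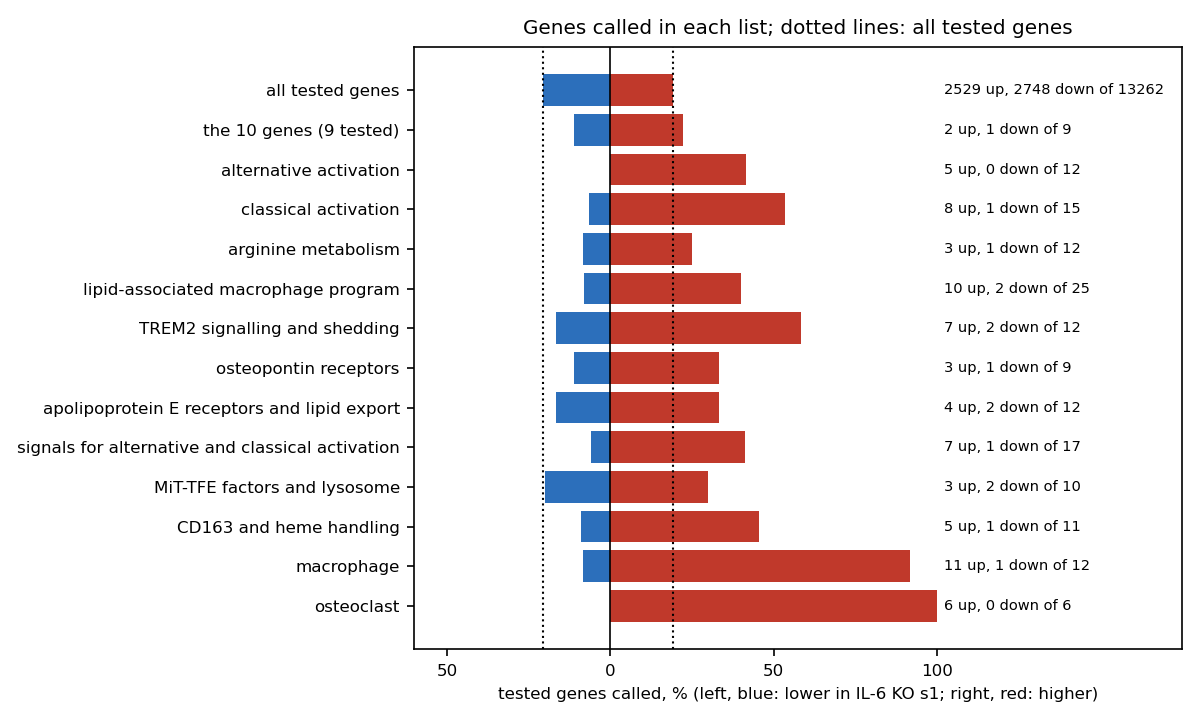
Share of tested genes of each list called higher (right, red) or lower (left, blue) in the knockout tumors, in percent, with the counts at the right and dotted lines at the shares of all tested genes (19.1% and 20.7%). The 9 tested genes of the set (2 higher, 1 lower) sit near the dotted lines, and the macrophage markers (11 of 12 higher) and osteoclast markers (6 of 6) lie far to the right. The osteoclast markers Dcstamp and Oscar and the classical genes Acod1 and Cxcl11 passed the expression filter only through the knockout tumors.

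The partners of osteopontin and apolipoprotein E moved in both directions. Of 9 osteopontin receptors 3 were higher, 1 lower and 5 not called (median 0.37). Itgb3, whose integrin binds osteopontin on osteoclasts and macrophages, rose by 0.78 (limma, adjusted p = 0.00648) and Itgb5 by 0.37 (adjusted p = 0.00850), Itga5 fell by 0.66 (adjusted p = 0.00137), and the abundant Itgb1 and Cd44 differed by -0.00 and 0.11 (adjusted p = 0.978 and 0.512). Of 12 genes for apolipoprotein E receptors and lipid export 4 were higher, 2 lower and 6 not called (median -0.01). The phospholipid transfer protein Pltp rose by 1.45 (limma, adjusted p = 0.000303) and Nr1h3, the LXR factor that activates Apoe in macrophages, by 0.61 (adjusted p = 0.0342), while Vldlr fell by 0.77 (adjusted p = 0.00291) and Nr1h2 by 0.25 (adjusted p = 0.0433). The cholesterol exporter Abca1 and the receptor Lrp1 differed by 0.05 and -0.08 (adjusted p = 0.875 and 0.745). Of 11 tested genes around CD163 and heme 5 were higher, 1 lower and 5 not called (median 0.42). The ferritin chain Fth1 rose by 1.39 (limma, adjusted p = 0.000407) and the iron transporter Slc11a1 by 0.96 (adjusted p = 0.0160), whereas the transferrin receptor Tfrc fell by 0.67 (adjusted p = 0.00174).

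Several calls among the named list genes lay close to the threshold, and the direction was kept with each tumor left out that ended a call. With 1 of the 8 tumors left out in turn, Lamp1, Pld3 and Nr1h2 lost their calls in 6 cases each (limma, adjusted p = 0.0512 to 0.0949, 0.0510 to 0.0802 and 0.0803 to 0.104). Clec7a, Nos3 and Nr1h3 lost theirs in 5 (0.0688 to 0.127, up to 0.0866, and 0.0554 to 0.0985), and Cxcl9 and Slc7a2 in 3 (0.0636 to 0.0786 and 0.0595 to 0.0616). Il4ra was called without knockout tumor 4 (0.0483) and Odc1 without control tumor 1 (0.00335).

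The genes nearest to each profile were found by the root mean square difference of centred log2 CPM over the 8 tumors. Nearest to Trem2 were Gpr137b (0.110) and Ephx1 (0.118), to Spp1 Nob1 (0.0419) and Commd5 (0.0438), and to Apoe Gsap (0.136) and Nfkbiz (0.141). Gpnmb was nearest to Mthfd2l (0.141) and Zfp606 (0.168), Mrc1 to Ckap2 (0.179) and Phldb2 (0.182), and Nos2 to Wfdc17 (0.157) and Anpep (0.201). The smallest distances of Cd163, Arg1 and Chil3 were larger, with F2rl1 (0.456), Ccl8 (0.847) and Ankrd37 (0.871) at the head of their lists. These distances describe likeness over tumors that are split into 2 groups. They are not scaled, so they grow with a gene's own spread, which was wide for Cd163, Arg1 and Chil3 and narrow for Spp1.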

How the data were processed

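RNA was sequenced from 4 cxC26 scr and 4 cxC26 IL-6 KO s1 tumors, grouped and numbered by their titles. The authors used Trimmomatic for trimming, Hisat2 for alignment to mm10 and featureCounts for counting per gene. They deposited the log2 CPM that limma-voom gives, which hold an offset of 0.5 reads. Annotation, strand setting and most tool versions are not given in the sources used here. Reads were recovered by inverting the offset, and 100% of values came out whole within 0.1 reads. They set the depth, 14158989 to 17048062 reads per tumor, and thereby the precision of low genes.

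Of the deposited table, 13262 genes that reached 1 CPM in 4 or more tumors were tested. Their log2 values were fitted in R 4.3.3 with limma 3.58.1 (lmFit, eBayes with trend, no covariates). P-values were adjusted over all tested genes by the Benjamini-Hochberg method, with a threshold of 0.05. For single values the exact permutation test (two-sided, 70 splits) was used. Lengths for RPKM were exon unions of GENCODE M21, and positions were from RefSeq (GRCm38). On simulated data, 200 of 200 genes changed by 2 log2 units were called, with 12 unchanged genes called of 13175 tested. That change is larger than the difference of every tested gene of the set, so it does not show how often smaller differences are called.

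The genes and lists were chosen with earlier results of these data known. All 10 genes are named, and of each list up to 2 genes with the largest increase and 2 with the largest decrease among those called and the 2 of highest level, and for each gene the 2 nearest profiles among genes averaging 3 log2 CPM or more. Other genes named from a list show which ones were called. A gene that the rule would name is left out of the text. Titles name separate tumors, and p-values measure the spread between these tumors. Alternatives were other filters, scalings, variance models and offsets, a replicate block and each tumor left out.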

Additional observations from a re-analysis of the deposited data

Results flagged for a closer look

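Within each group of 4 tumors, the highest or lowest tumor was set against the others by Dixon's ratio (critical value 0.829) for the levels of the genes and the list scores. Of 68 groups looked at, 6 exceeded it, where chance gives about 3.40. Spp1 in cxC26 IL-6 KO s1 tumor 3 was 12.90 log2 CPM, against 12.77 to 12.79 in the other tumors of its group. Apoe in cxC26 scr tumor 1 was 9.15, against 9.55 to 9.62. The score of osteopontin receptors, their mean log2 CPM, was 5.44 in cxC26 scr tumor 2, against 5.81 to 5.83. The other 3 were scores of cxC26 IL-6 KO s1 tumor 1. Its genes for signals of alternative and classical activation scored 6.53, against 6.01 to 6.09, its mast cell markers 2.20, against 4.34 to 4.43, and its dendritic cell markers 1.42, against 0.82 to 0.90, from the 1 gene of that list that was tested.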

How the results depend on the processing

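The numbers of genes called rest on values near the threshold. Against 2 higher and 1 lower of the set, there were 1 and 0 with no filter, without a variance trend and without moderation, 1 higher with voom precision weights, and 0 lower with quantile normalization or median re-centring. Leaving out 1 tumor gave 1 to 3 higher and 0 to 1 lower. Re-centring on macrophage markers gave 1 higher and 6 lower of the set and 299 higher and 10849 lower of all tested genes (2529 and 2748 as reported), and pan-leukocyte markers gave 0 and 7, and 238 and 11259. These 2 fits gave all genes of a level the same variance (infinite prior degrees of freedom), so their calls do not rest on a gene's own spread, and the 1 higher is Arg1, whose groups overlapped there (exact permutation p = 0.629). They shift the median gene by -1.0 and -1.14. These settings turned Mrc1 to -0.48 and -0.61 and Spp1 to -0.96 and -1.10. Trem2 was called in 17 of the 17 other settings, Mrc1 in 7 and Cd163 in 6 of 17. Chil3, which was not called, was on the other side of 0 in 3 of 16. With the replicate block, 3 genes of the set were higher and 2 lower, with adjusted p = 0.00134 for Arg1 and 0.0487 for Gpnmb (limma). Same-numbered tumors did not deviate together (correlations -0.06 to 0.06, 2 of 8 tumors closest to their own number), so the numbers are not a pairing. Depth limits Retnla, for which no fold is given with 37 reads in all.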
